A study of Homo sapiens with 6 samples.

Results

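The mRNA of 10 genes of polyamine metabolism and amine oxidation was followed in HCT116 cells, a human colorectal carcinoma line, with and without LSD1. The genes were SMOX, PAOX, MAOA, MAOB, SAT1, ODC1, AMD1, SRM, SMS and AZIN1, taken by symbol from the 60240 genes of the count table, and all 10 had enough reads to be tested. LSD1, encoded by KDM1A, is a histone H3K4 demethylase and belongs to the FAD-dependent amine oxidases, the enzyme family that also holds SMOX, PAOX, MAOA and MAOB. The polyA RNA of 3 wild-type (WT) and 3 LSD1 knockout (LSD1 KO) libraries was sequenced. Both groups were HCT116 cells grown in McCoy's 5A medium with serum, and the knockout had been made with Cas9 and a guide in exon 1 of the gene, followed by puromycin selection and expansion of individual clones. The labels do not say whether the LSD1 KO libraries came from 1 clone or several, nor whether libraries of a group were separate cultures, so the p-values measure only the spread between these libraries, which may be technical.

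Polyamines are small, positively charged amines that bind nucleic acids and are needed for growth. Cells make putrescine from ornithine through ornithine decarboxylase, then add aminopropyl groups to give spermidine and spermine. The way back runs either through acetylation by SAT1 followed by oxidation by PAOX, or through direct oxidation of spermine by SMOX, and both oxidases release hydrogen peroxide. Intestinal epithelium and its tumours are known for active polyamine synthesis, driven in part by MYC. The monoamine oxidases MAOA and MAOB sit on the outer mitochondrial membrane and act on neurotransmitter and dietary amines rather than on polyamines.

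Libraries held between 25379279 and 29186963 counts, so 3 counts corresponded to between 0.103 and 0.118 CPM, the unit of counts scaled to a common library size. All CPM values below were scaled with TMM size factors, and errors are SD over 3 libraries. KDM1A lay at 223 ± 8.78 CPM in WT and at 28.4 ± 1.30 CPM in LSD1 KO (n = 3 each), a log2 fold change of -2.97 with an adjusted p (q) of 0.000451 in the edgeR quasi-likelihood test. Of 8 colorectal epithelial markers, 7 were tested and VIL1 was at most 0.302 CPM, and their summed level ran from 2132 to 3966 CPM in WT and from 2538 to 3337 CPM in LSD1 KO. They did not move one way. With the replicate number as a block, EPCAM had a log2 fold change of -0.98 (q = 0.0788 in edgeR, 0.162 in DESeq2). Without the block EPCAM had q = 0.668 in edgeR and 0.0508 in DESeq2. In edgeR with the block, KRT18 stood at -0.47 (q = 0.23), CDH1 at -0.34 (q = 0.196), KRT8 at -0.15 (q = 0.645) and CDX2 at 0.01. For EPCAM and KRT18 every LSD1 KO library lay below every WT library, as for 3.51% of all genes tested. With the block, KRT19 stood at 0.45 (q = 0.123 in edgeR, 0.00373 in DESeq2) and CLDN4 at 0.34 (q = 0.139 and 0.0473). Summed leukocyte markers ran from 16.1 to 19.7 CPM in WT and from 22.2 to 32.6 CPM in LSD1 KO, nearly all of it CD68 (log2 fold change 0.69, q = 0.132 in edgeR and 0.0172 in DESeq2 with the block), with CD3E at 0 in every library and PTPRC at no more than 0.111 CPM. Summed fibroblast markers ran from 20.4 to 23.9 CPM and from 30.1 to 34.0 CPM, nearly all of it COL1A1 (log2 fold change 0.52, edgeR with the block q = 0.0628), with LUM at 0 and COL1A2 and DCN at most 0.0757 CPM. For CD68 and COL1A1 every LSD1 KO library lay above every WT library, as for 4.23% of all genes tested. Endothelial markers summed to at most 1.36 CPM. The part of these marker differences in the results below was not tested, and in RNA from whole cultures fewer expressing cells and less RNA per cell cannot be told apart.

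For SAT1, SMOX, PAOX, MAOB and SMS, replicate 2 was the highest library of both groups. Same-numbered WT and LSD1 KO libraries deviated together, so 2 models were fitted to all 17672 genes tested, one with group alone and one with the replicate number as a block, which compares LSD1 KO with WT inside each pair. A gene was called at q under 0.1. Without the block edgeR called 0 of the 10 genes, against 0.00566% of all genes tested (KDM1A alone), and at an unadjusted p under 0.05 it again took 0 of the 10, against 3.12%. DESeq2 without the block also called 0 of the 10 (0.376% of its genes), with 0 at an unadjusted p under 0.05 (1.96%). With the block, edgeR called 2 of the 10, against 1.60% of all genes: SAT1 was the 1 member called higher (1.05% of all genes were) and ODC1 the 1 member called lower (0.549%). At an unadjusted p under 0.05 the block took 4 of the 10, namely SMOX, MAOB, SAT1 and ODC1, against 13.4% of all genes. DESeq2 with the block called the same 4 genes at q under 0.1, against 4.21% of its genes. Direction was the same in 3 of 3 pairs for 9 of the 10 genes: SMOX, MAOA, MAOB, SAT1 and SMS were higher in LSD1 KO (5 genes, against 18.8% of all genes), and PAOX, ODC1, SRM and AZIN1 were lower (4 genes, against 17.5%). Some of these differences were slight. On the log2 scale, pair 3 differed by only -0.03 for PAOX, 0.03 for SMS, -0.05 for AZIN1 and -0.06 for SRM. The groups themselves overlapped for nearly every member, with 0 of the 10 genes above WT in all LSD1 KO libraries (4.23% of all genes) and 1, AZIN1, below it (3.51%). The members' median log2 fold change was 0.05, with 6 positive and 4 negative, beside 0.00 over all genes tested.

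**Figure D1:**
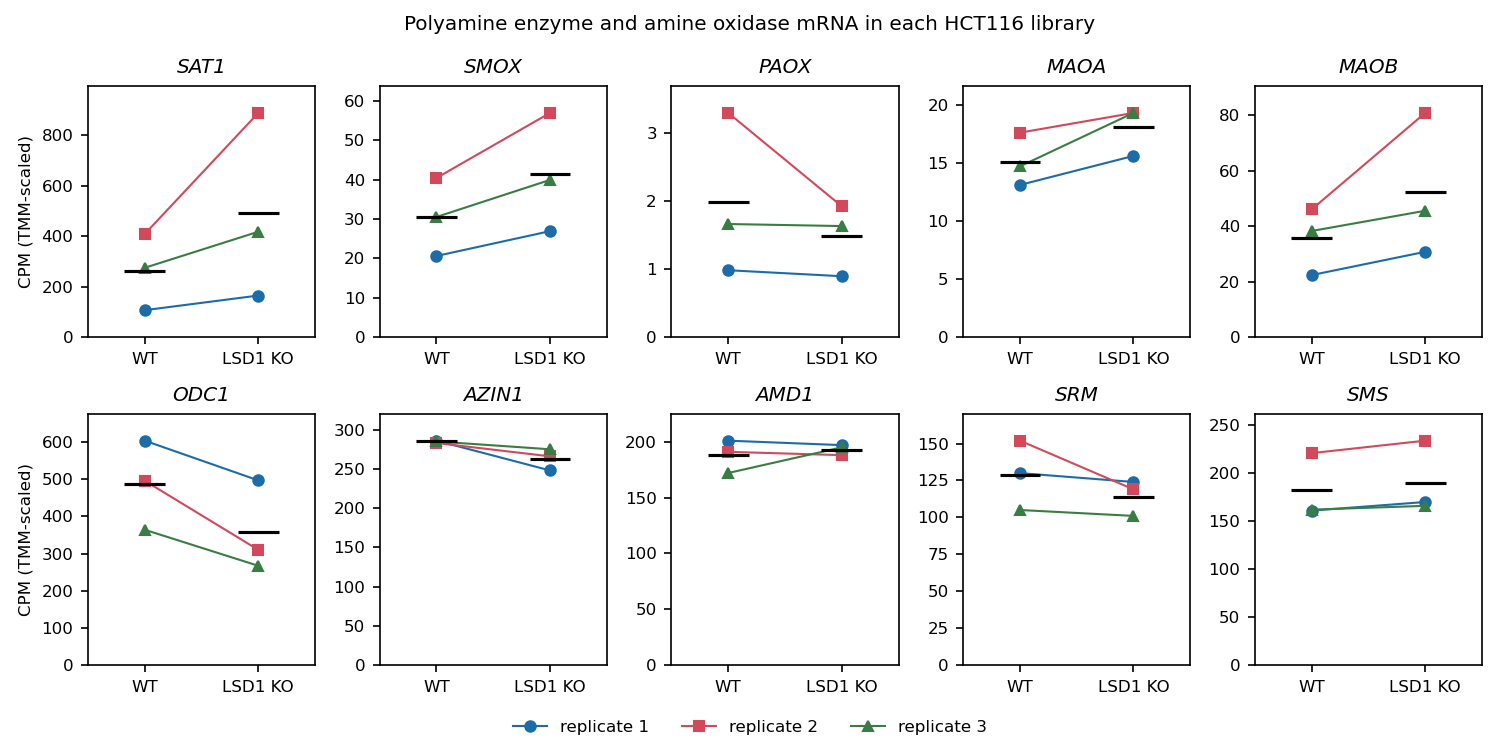
CPM (linear axis from 0) of the 10 genes in each library, WT on the left and LSD1 KO on the right of each panel; lines join libraries of the same replicate number and black bars are group means. SAT1 goes up along all 3 lines, from 107, 409 and 275 CPM to 165, 889 and 418 CPM, and ODC1 goes down along all 3.

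**Figure D2:**
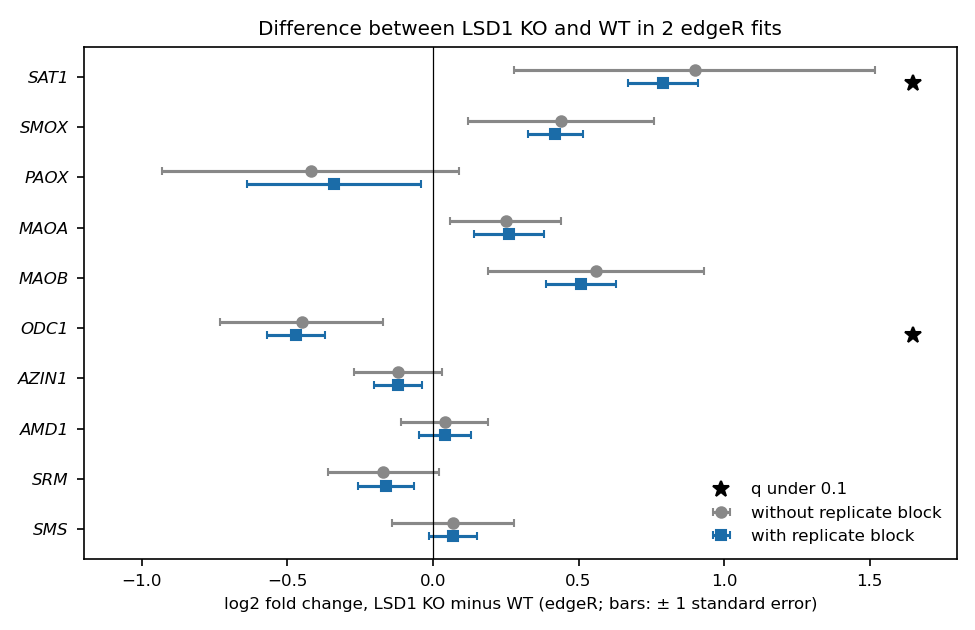
Log2 fold change of LSD1 KO minus WT for each gene (x axis), with bars of 1 standard error, from edgeR without the replicate block (grey circles) and with it (blue squares). Stars mark the 2 genes with q under 0.1 in the fit with the block, SAT1 at 0.79 and ODC1 at -0.47.

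SAT1, the spermidine/spermine acetyltransferase that starts polyamine breakdown and export, moved the most. The gene (ENSG00000130066) lies on the plus strand of chromosome X from 23783173 to 23786210 (GRCh38). Its level was 107, 409 and 275 CPM in WT replicates 1, 2 and 3 and 165, 889 and 418 CPM in the LSD1 KO replicates, with means of 264 ± 152 and 491 ± 368 CPM (SD, n = 3 each). LSD1 KO was higher in each pair, by 1.55, 2.17 and 1.52 fold, but the groups overlapped widely because WT replicate 2 lay 3.84 times above WT replicate 1, and LSD1 KO replicate 2 lay 5.38 times above LSD1 KO replicate 1. The median gene of at least 1 CPM differed 1.43 fold between its highest and lowest library in WT and 1.43 fold in LSD1 KO. Without the block the log2 fold change of 0.90 (SE 0.62) did not pass (edgeR q = 0.999), and with it SAT1 rose by 0.79 (SE 0.12, edgeR q = 0.0277), 1.72 fold. SAT1 was called by edgeR with the block whichever pair was left out, at 0.60 (q = 0.000294) without pair 2. These fits rest on fewer libraries and were added after the data were seen, so they are no independent test of SAT1. Over all genes, the fit without pair 1 called 428 and the fit without pair 3 called 198. The fit without pair 2 called 5.85% of all genes, against 1.60% with all pairs, so its q cannot be set beside the one above. Without the block, leaving out LSD1 KO replicate 2 alone took SAT1 from 0.90 to 0.12.

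The stretch of 250 bases before the SAT1 start site is printed next, with that of ODC1, because they are the 2 members called, in opposite directions. Sequences are RefSeq's for GRCh38.p14, read 5′ to 3′ on the strand of the gene and ending at the base before the start. Capitals mark matches to the E-box CACGTG, the GC box with its letters GGGCGG, the CCAAT box, the TATA box with its core TATAA, and TGACG, a piece of the cAMP response element. Each was searched on both strands, the E-box reads the same on both, and no motif contains another.
SAT1 at chrX:23782923-23783172, plus strand: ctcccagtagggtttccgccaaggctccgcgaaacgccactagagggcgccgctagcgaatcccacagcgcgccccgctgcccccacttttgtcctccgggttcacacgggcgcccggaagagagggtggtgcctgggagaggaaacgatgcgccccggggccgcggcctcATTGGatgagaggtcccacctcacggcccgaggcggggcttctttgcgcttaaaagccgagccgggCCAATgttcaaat
ODC1 at chr2:10448328-10448577, minus strand: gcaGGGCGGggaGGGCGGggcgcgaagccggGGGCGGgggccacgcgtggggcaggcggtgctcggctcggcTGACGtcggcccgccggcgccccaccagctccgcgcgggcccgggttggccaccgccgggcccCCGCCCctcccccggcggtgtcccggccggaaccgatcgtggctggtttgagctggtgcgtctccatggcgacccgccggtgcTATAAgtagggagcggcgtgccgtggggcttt
The SAT1 stretch held 2 CCAAT matches, 79 and 13 bases before the start, and no match to the other motifs. CCAAT was found in 32.0% of the 35116 promoter windows of the same length in the table. The ODC1 stretch held 4 GC boxes (42.6% of windows have at least 1), a TATAA match 32 bases before the start (18.9%) and a TGACG match (21.2%), and no CCAAT or E-box. Promoters were matched for 7 of the 10 genes, and not for SMOX, PAOX and AZIN1.

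SMOX, the spermine oxidase, was higher in LSD1 KO in each pair by a similar amount. The gene (ENSG00000088826) lies on chromosome 20 from 4148828 to 4187727. WT libraries 1, 2 and 3 held 20.6, 40.4 and 30.5 CPM, and LSD1 KO libraries held 26.9, 56.9 and 39.9 CPM. The pairs differed by 0.39, 0.49 and 0.39 on the log2 scale, while the groups, at 30.5 ± 9.94 and 41.3 ± 15.1 CPM (SD, n = 3 each), overlapped. The estimate with the block was 0.42 (SE 0.094), which narrowly missed the threshold in edgeR (q = 0.108) and passed it in DESeq2 with the block (q = 0.0661). In edgeR with the block and without pair 2, SMOX was called (0.37, q = 0.0943), as 1 of 3 members with SAT1 and ODC1, where 5.85% of all genes were called.

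PAOX, the oxidase that acts on acetylated polyamines, was barely expressed. The gene (ENSG00000148832, chromosome 10, 133379262 to 133391694) had 26, 87 and 50 counts in WT and 25, 52 and 43 in LSD1 KO, or 1.98 ± 1.19 and 1.48 ± 0.527 CPM. WT replicate 2 stood above the other libraries, and without it the log2 fold change turned from -0.42 (SE 0.51) to 0.16. Of the 31-base words in its transcripts, 58.1% also occur in the overlapping annotation ENSG00000254536, which had 56, 33 and 61 counts in WT and 54, 25 and 56 in LSD1 KO, so the split of reads between both is uncertain.

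The other genes of the breakdown list were SAT2, HDAC10 and ALDH9A1. SAT2, a paralog of SAT1, held 13.1, 28.0 and 17.5 CPM in WT and 20.0, 37.5 and 22.9 CPM in LSD1 KO, higher in each pair, with a log2 fold change of 0.47 (SE 0.11) in the block fit that missed the threshold (edgeR q = 0.117) and passed it in DESeq2 with the block (q = 0.0883). ALDH9A1, an aldehyde dehydrogenase that turns an aldehyde of putrescine into GABA, had a log2 fold change of -0.15 (SE 0.085). Of the 6 genes in this list with a fit, 1 rose in edgeR with the block (SAT1), 0 fell and 5 did not pass, with a median of 0.17. Over all genes tested, that fit called 1.05% higher and 0.549% lower.

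ODC1, ornithine decarboxylase, which makes putrescine and is commonly rate-limiting for synthesis, was lower in LSD1 KO. The gene (ENSG00000115758) spans chromosome 2 between 10439968 and 10448327, minus strand. It was measured at 604, 496 and 364 CPM in WT replicates 1, 2 and 3 and at 497, 310 and 267 CPM in LSD1 KO. Each LSD1 KO library was below its WT partner, by factors of 0.823, 0.624 and 0.733, but LSD1 KO replicate 1 was above WT replicates 2 and 3, so the groups, at 488 ± 120 and 358 ± 123 CPM (SD, n = 3 each), overlapped. The log2 fold change was -0.45 (SE 0.28, edgeR q = 0.999) without the block, and with it ODC1 fell by 0.47 (SE 0.10, edgeR q = 0.0922). This call was lost without pair 3 (-0.48, edgeR q = 0.335). It held without pair 2 (-0.38, edgeR q = 0.0167), where 5.85% of all genes were called. The order of the replicates also differed between both called genes: replicate 1 was the highest of its group for ODC1 and the lowest for SAT1.

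AZIN1, antizyme inhibitor, protects ODC1 protein from antizyme and degradation. The gene (ENSG00000155096, chromosome 8, 102826302 to 102864200) held 286, 283 and 285 CPM in WT and 248, 266 and 275 CPM in LSD1 KO. It was the steadiest member in WT (285 ± 1.39 CPM) and the member whose groups did not overlap, with LSD1 KO at 263 ± 14 CPM. The exact two-sided permutation test gave p = 0.1, the smallest that 3 libraries against 3 allow, and the groups overlapped in CPM without TMM factors. In edgeR with the block the log2 fold change was -0.12 (SE 0.084, q = 0.602).

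AMD1, S-adenosylmethionine decarboxylase, supplies the aminopropyl group, and SRM and SMS, spermidine and spermine synthase, transfer it. AMD1 (ENSG00000123505, chromosome 6, 110814617 to 110895713, plus strand) held 201, 191 and 172 CPM in WT and 197, 188 and 195 CPM in LSD1 KO. Its groups were close, 188 ± 15 and 193 ± 4.77 CPM, and the pairs went both ways. The log2 fold change with the block was 0.04 (SE 0.089, edgeR q = 0.88). SRM (ENSG00000116649, chromosome 1, 11054589 to 11060018, minus strand) held 130, 152 and 105 CPM in WT and 124, 119 and 101 CPM in LSD1 KO, and its log2 fold change was -0.16 (SE 0.096, edgeR q = 0.525) with the block. Most of that difference lay in pair 2, at -0.35 on the log2 scale, against -0.07 and -0.06 in pairs 1 and 3. SMS (ENSG00000102172, chromosome X, 21940709 to 21994837, plus strand) held 161, 221 and 162 CPM in WT and 170, 234 and 166 CPM in LSD1 KO, a log2 fold change of 0.07 (SE 0.082, edgeR q = 0.783) with the block. Replicate 2 was the highest of both groups, and the pairs differed by no more than 0.08. Of its 31-base words 34.4% occur elsewhere, chiefly in ENSG00000213080 (29.9%) and ENSG00000232389 (17.6%), which had at most 1 count in any library.

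Among the promoters, SRM and the second annotated start of ODC1 were the only ones of the matched members with an E-box, the motif through which MYC is known to act, which 6.34% of windows hold. The stretches around both are printed because they carry that match, with the E-box in capitals.
SRM at chr1:11060193-11060232, minus strand: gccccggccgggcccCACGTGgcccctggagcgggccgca
ODC1, second start, at chr2:10448013-10448051, minus strand: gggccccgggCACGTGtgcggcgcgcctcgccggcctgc
A match describes the letters only. MYC itself held 216, 383 and 359 CPM in WT and 351, 287 and 500 CPM in LSD1 KO, higher in pairs 1 and 3 and lower in pair 2. Its log2 fold change with the block was 0.25 (SE 0.19, edgeR q = 0.609). Leaving out pair 2, the pair that went the other way, gave 0.57 (edgeR q = 0.000539), where 5.85% of all genes were called. That fit was added after the data were seen, so its q is no test of whether MYC rose. OAZ1, the antizyme that targets ODC1 protein for degradation, was at 629 ± 165 CPM in WT and 651 ± 164 CPM in LSD1 KO. Of the 12 genes listed for synthesis and its regulators, 0 rose, 1 fell in edgeR with the block (ODC1) and 11 did not pass. Their median log2 fold change was 0.06, and over all genes tested 1.05% were called higher and 0.549% lower.

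Of both monoamine oxidases, MAOB had the larger log2 fold change. MAOA (ENSG00000189221, chromosome X, 43655006 to 43746817, plus strand) and MAOB (ENSG00000069535, chromosome X, 43766610 to 43882450, minus strand) lie tail to tail with 19792 bases between them. MAOB held 22.4, 46.1 and 38.3 CPM in WT and 30.8, 80.9 and 45.6 CPM in LSD1 KO, higher in each pair by 1.38, 1.76 and 1.19 fold. Its groups, at 35.6 ± 12.1 and 52.4 ± 25.7 CPM (SD, n = 3 each), overlapped. The log2 fold change with the block was 0.51 (SE 0.12), not called by edgeR (q = 0.126) and called by DESeq2 with the block (q = 0.0297). Without pair 2 it was 0.34 in edgeR with the block (q = 0.139). MAOA held 13.1, 17.6 and 14.7 CPM in WT and 15.6, 19.3 and 19.3 CPM in LSD1 KO, higher in each pair, with a log2 fold change of 0.26 (SE 0.12, edgeR q = 0.4) with the block. Only 0.38% of the 31-base words of MAOB occur in MAOA, although the proteins are close relatives. In the 250 bases before the start site used, MAOB had 7 GC boxes and MAOA had 4, and neither had a match to the other motifs. For MAOB that site was the end of the gene given above, 43882450. For MAOA it was 43656299, inside the span given above, so the 2 windows are not placed alike.

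Ordered by CPM per kilobase of the canonical transcript, the 10 genes spanned a wide range of levels. In WT, SAT1 led at 251 ± 145, followed by ODC1 at 197 ± 48.5, SMS at 107 ± 20.2 and SRM at 102 ± 18.7 CPM per kb. AZIN1 followed at 67.9 ± 0.332 and AMD1 at 55.0 ± 4.38 CPM per kb. SMOX at 14.1 ± 4.59 and MAOB at 13.8 ± 4.70 lay well under the synthesis genes, with MAOA at 3.85 ± 0.573 and PAOX at 1.08 ± 0.649 CPM per kb at the end. Neighbours within their SD were SAT1 and ODC1, SMS and SRM, and SMOX and MAOB, while the other neighbours lay apart by more than their SD. In LSD1 KO the means were 468 ± 350 for SAT1 and 145 ± 49.5 for ODC1, and MAOB (20.4 ± 10.0) and SMOX (19.1 ± 6.96) changed places within their SD.

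**Figure D3:**
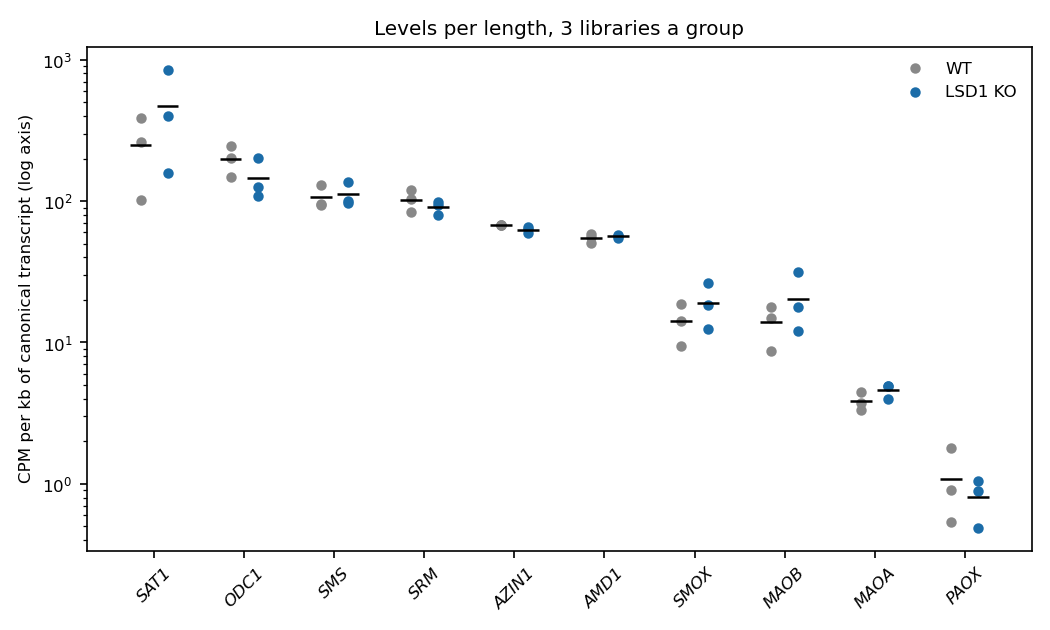
CPM per kilobase of canonical transcript (log axis) for the 10 genes, ordered by the WT mean, with 1 point per library and black bars for the means of 3 WT (grey) and 3 LSD1 KO (blue) libraries. Levels in WT run from 251 for SAT1 to 1.08 for PAOX.

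Outside the 10 genes, edgeR with the block gave 1 further call in the feeder pathways. MAT2A, the methionine adenosyltransferase that makes the S-adenosylmethionine used by AMD1, held 347, 345 and 337 CPM in WT and 443, 500 and 477 CPM in LSD1 KO. Every LSD1 KO library lay above every WT library, as for 4.23% of all genes tested. With the block MAT2A rose by 0.46 on the log2 scale (SE 0.086, edgeR q = 0.0582), while the same value without it did not pass (edgeR q = 0.999). In the methionine cycle and methylthioadenosine salvage list it was the 1 gene called by edgeR with the block of 11 with a fit. The share over all genes tested was 1.60%, with 1.05% called higher, and the list median was -0.07. AHCY, which hydrolyses S-adenosylhomocysteine, was the most abundant of that list at 426 ± 38.0 CPM in WT and 488 ± 24.9 CPM in LSD1 KO. MAT1A, the liver form, was under 2 CPM in every library, with a log2 fold change of -1.40 (SE 0.55, edgeR q = 0.317) with the block. Without pair 2 it was -1.92 (edgeR q = 0.0728). Most of this lay in LSD1 KO replicate 1, with 2 counts against 31 in WT replicate 1. That pair differed by -4.03 on the log2 scale, and pairs 2 and 3 by -0.61 and -0.98.

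In the remaining lists edgeR with the block called KDM1A and no other gene. Of all genes it called 1.60%, and 13.4% had an unadjusted p under 0.05. DESeq2 with the block called 4.21% of its 14165 genes, and 1678 of them had an unadjusted p under 0.05. Of 10 genes of arginine and ornithine supply with a fit, edgeR with the block called 0, and the median was -0.06: ARG2, the mitochondrial arginase, had a log2 fold change of 0.41 (SE 0.21), the proline enzyme PYCR3 one of -0.37 (SE 0.17), and PYCR1 went from 252 ± 26.9 to 217 ± 29.4 CPM. At an unadjusted p under 0.05 edgeR with the block took 1 of these 10, SLC7A1, an importer of arginine named after its values were seen, at -0.31 (SE 0.092, edgeR q = 0.201), and DESeq2 with the block called it (q = 0.0958). None of the 4 genes of the hypusine route, which uses spermidine to modify the translation factor EIF5A, was called by edgeR or DESeq2 with the block, with 1 of them at an unadjusted p under 0.05 in each. EIF5A went from 870 ± 167 to 789 ± 188 CPM, DOHH had a log2 fold change of -0.30 (SE 0.11) and EIF5A2 one of 0.13 (SE 0.18). Of 8 transport genes with a fit edgeR with the block called 0, as DESeq2 with the block did, and 3 had an unadjusted p under 0.05 in edgeR, among them CAV1 at 0.23 (SE 0.092) and SLC3A2 at -0.37 (SE 0.13). Of 7 copper and quinone amine oxidases with a fit edgeR with the block called 0, with 3 at an unadjusted p under 0.05, and DESeq2 with the block called 1, LOXL2 (q = 0.0798). LOXL2, a lysyl oxidase of the extracellular matrix, went from 41.2 ± 13.2 to 59.8 ± 24.8 CPM. LOXL4 had a log2 fold change of 0.75 (SE 0.26, edgeR q = 0.272) and LOXL3 one of -0.01. Without pair 2, where 5.85% of all genes were called, LOXL4 had an edgeR q of 0.034. Among 7 FAD amine oxidases with a fit KDM1A was the 1 called by edgeR with the block, where DESeq2 with the block also called SMOX and MAOB. KDM1B, the other H3K4 demethylase of this family, held 51.2 ± 8.30 CPM in WT and 52.8 ± 3.82 CPM in LSD1 KO. RNLS, ATP13A5, SLC22A2 and SLC22A3 had no counts, and AOC1, ARG1, OTC, SLC25A2, BHMT, GNMT, ATP13A4 and SLC22A16 were too low to be fitted.

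**Figure D4:**
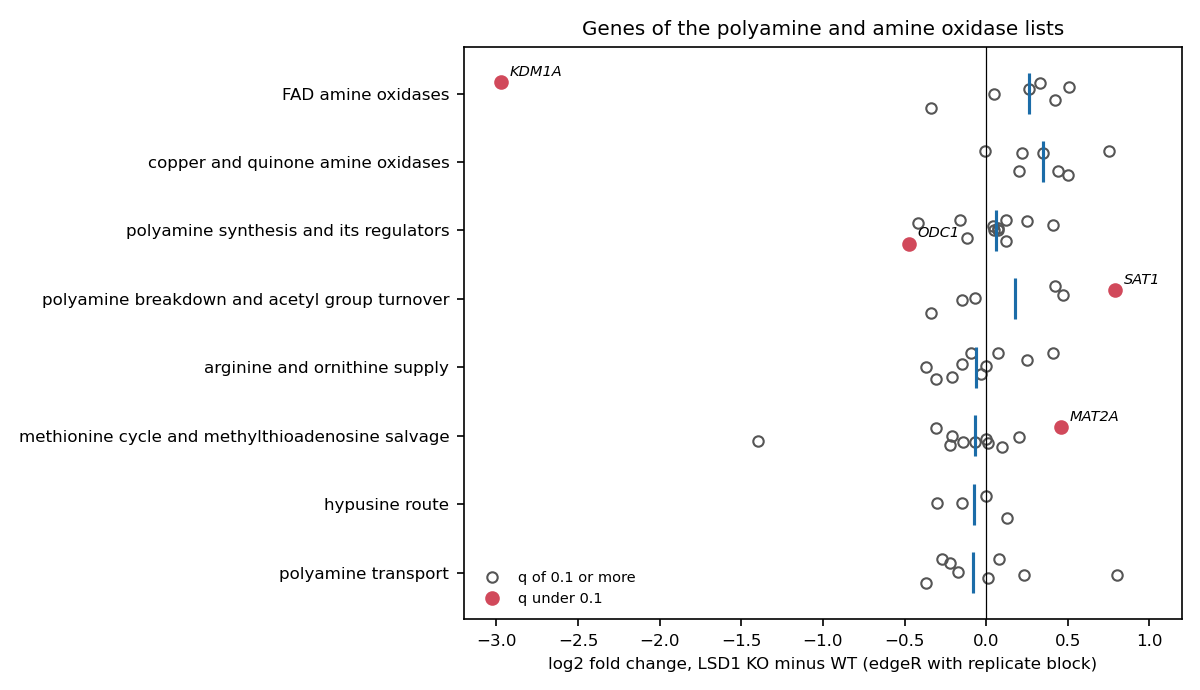
Log2 fold change of LSD1 KO minus WT from edgeR with the replicate block (x axis) for each fitted gene of 8 lists (rows, the 10 members included), with list medians as blue bars; vertical scatter within a row carries no value. Filled points have q under 0.1: KDM1A at -2.97, ODC1 at -0.47, SAT1 at 0.79 and MAT2A at 0.46.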

How the data were processed

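Gene expression was compared between 3 WT and 3 LSD1 KO libraries of HCT116 RNA. Per the labels and the study's methods, the authors checked reads with FastQC, trimmed them with Trimmomatic 0.39 and quantified them with Salmon 1.4.0 on GRCh38. The deposited table gave expected counts per gene in whole numbers, with no scaling for library size; how transcripts were summed to genes is not given in the sources used here. Symbols were matched by Ensembl identifier for 58395 of 60240 genes.

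Counts were compared with edgeR 4.0.16 in R 4.3.3 (TMM, filterByExpr by group, quasi-likelihood test, Benjamini-Hochberg adjustment over all 17672 genes tested, called at q under 0.1, the threshold of the study's methods). The SE of a log2 fold change was its size divided by the square root of F. DESeq2 1.42.0 was an alternative, and an adjusted p that it left as NA was not counted. In another fit, replicate number entered as a block: deviations from the group mean correlated at 0.553, 0.553 and 0.404 across 17672 genes between same-numbered libraries, and at -0.516 to 0.0454 between the others, so the numbers were taken to pair the libraries, which is read from the data and a shared number. Deviations within a group sum to 0, so positive values between same-numbered libraries push those between the others below 0. The lower values are therefore no further evidence of pairing, and whether the numbers mark a shared culture was not tested. edgeR's common coefficient of biological variation was 0.279 without the block and 0.133 with it. The fits were run on simulated counts in which same-numbered libraries shared an effect. This takes the pairing as given and did not test it. Leaving out both libraries of a number, alone or with the block, and DESeq2 with the block were added after seeing the data.

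Coordinates came from RefSeq on GRCh38.p14, transcript lengths and shared words of 31 bases from GENCODE annotation lifted to GRCh37. Promoter windows were searched in Python 3.11.15. CPM counting floors cover counting error only. The members and the gene lists were chosen with earlier results of these data known. Genes outside the 10 were named by a rule: those called, and in each list the most abundant gene and, among genes of at least 1 CPM, the largest rise and fall. Other list genes with a fit are given as counts. PECAM1 was not analysed here, and 1 listed gene is not reported here.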

Additional observations from a re-analysis of the deposited data

How the results depend on the processing

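The fit without the replicate block called 1 gene of all, 0 of the 10 members and 1 gene of the pathway lists (KDM1A). Other size factors and a minimum of 10 counts left these counts as they were. Keeping every gene with counts gave 114 calls (62 higher, 52 lower) and DESeq2 95 (57 and 38), both with 0 members. The replicate block gave 282 (185 and 97), with 2 members (SAT1 0.79, ODC1 -0.47) and 2 pathway genes. DESeq2 with the replicate block gave 597 (359 and 238), with 4 members and 5 pathway genes. The replicate block without pair 1 gave 428 calls, 2 members and 2 pathway genes. Without pair 2 it gave 1055, 3 and 10, the last with ASS1, APIP, MAT1A, MYC, NQO1, LOXL4, SAT2 and GPC1 beside KDM1A and MAT2A. For ASS1, APIP, MYC and NQO1, the pair left out was the one that went the other way. Without pair 3 the replicate block gave 198, with 1 member, SAT1, and ODC1 lost its call. Without the block, leaving out both libraries of replicate 2 gave 22 calls (13 and 9), and leaving out both of replicate 3 gave 0 calls, 0 pathway genes and KDM1A at -2.98 (edgeR q = 0.336), with 193 genes at an unadjusted p under 0.05. Leaving out single libraries gave 1 to 26 calls, the most without LSD1 KO replicate 2, and moved the median of the members from 0.05 to between -0.04 (without LSD1 KO replicate 2) and 0.19 (without WT replicate 2), by way of -0.02 without WT replicate 3. In these fits KDM1A stayed between -3.01 and -2.95. SMS (highest 0.23) turned to -0.01, -0.01 and -0.13 (without WT replicate 1, WT replicate 3 and LSD1 KO replicate 2), PAOX (lowest -0.74) to 0.16 (without WT replicate 2) and AMD1 (highest 0.09) to -0.02 (without WT replicate 3); AMD1 also turned to -0.03 without pair 3 and to -0.02 without it under the block. With plain CPM, 0 members had groups that did not overlap, against 1 with TMM. SAT1 ran from 0.12 to 1.36, and ODC1 from -0.76 to -0.27, over 19 alternative fits, SMOX from 0.11 to 0.69 and MAOB from 0.08 to 0.83, all without a change of sign. Leaving out LSD1 KO replicate 2 gave the lowest value of SAT1 (0.12, from 0.90), MAOB (0.08, from 0.56) and SMOX (0.11, from 0.44). The cause of these changes was not tested. PAOX, at no more than 87 counts in a library, is the member whose depth limits its value most.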
